A study of Mus musculus with 24 samples.

Results

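The mitochondrial ribosomal protein genes of the mouse were taken as the protein-coding genes of a RefSeq gene table whose symbol begins with Mrpl or Mrps and continues with a number. The rule found 78 genes of 21887, of which 49 carry a large subunit symbol (Mrpl) and 29 a small subunit symbol (Mrps). They lie on 17 chromosomes, with 11 on chromosome 11 and 8 on chromosome 17. ChIP-seq in day 5 embryoid bodies located acetylation of lysine 9 on histone H3 (H3K9ac), which marks active promoters. Embryoid bodies are aggregates that embryonic stem (ES) cells form as they differentiate. Kat2a encodes Gcn5, an enzyme that places acetyl groups on H3 lysine 9 among other residues, and the comparison asked how the distribution of the mark changes when Gcn5 is lost. Per the labels the cells are of strain C57BL/6, clones 4_1 and 6_1 have the genotype Gcn5 fx/fx (the intact floxed allele, homozygous) and clones 4_C2 and 6_C4 the genotype Gcn5-/- (null). Clones 4_1 and 4_C2 are isolate pair 4, clones 6_1 and 6_C4 are isolate pair 6, and each clone has 2 replicates. No other allele or agent is named in the labels, and how the deletion was made is not stated there.

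The mitochondrial ribosome translates the few messages of the mitochondrial genome, all of which encode subunits of the respiratory chain and of ATP synthase. Its RNAs are mitochondrial, but every one of its proteins is encoded in the nucleus, made in the cytosol and imported. The small subunit reads the message and holds the decoding site, and the large subunit joins amino acids and holds the exit tunnel. Nuclear genes for mitochondrial proteins are known for promoters bound by nuclear respiratory factor 1 (NRF1), by ETS family factors such as GABP (nuclear respiratory factor 2) and by YY1, and their output follows cell growth.

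The data were 8 lists of H3K9ac peaks, 1 for each library, with 12041 to 20809 peaks. In pair 4 the lists held 15315 and 13260 peaks for fx/fx and 14947 and 12041 for null. In pair 6 they held 20809 and 18477 for fx/fx and 18932 and 17849 for null. Each list gives the start and end of every peak and nothing else, so the measurement is the length of DNA under peaks, and the strength of the mark within them is unknown, as is the depth of the libraries. Peaks were present at Kat2a in all 4 libraries of each genotype, which does not test the deletion, so the genotype labels were not checked. Of marker genes for the culture, 2 of 6 pluripotency, 2 of 3 epiblast and 2 of 3 neuroectoderm genes had a peak in all 8 lists. The 4 mesoderm and 4 endoderm markers each had one in at least 1 list and none had one in all, and 3 of 4 fibroblast markers had one in at least 1 list. Each genotype rests on 2 clones, and separate cultures are not named for replicates, so every p-value here measures spread among these 8 libraries, which may be technical.

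The sequences that precede the start sites of 7 members are shown because the results below turn on these genes or because they hold the motifs counted here. All come from RefSeq on GRCm38.p6, which shares its chromosome sequence with mm10, and are written 5′ to 3′ on the strand of the gene named first. They end 1 base before the start site listed by RefSeq. Capitals mark a match to the core motif of NRF1 (GCGCATGC), of ETS factors (CCGGAAG) or to the E-box (CACGTG), on either strand. Mrpl20 is at chr4:155802678-155802877 on the plus strand. The stretch between Mrps12 and Sars2, the mitochondrial seryl-tRNA synthetase gene transcribed the other way, is chr7:28741822-28741956, minus strand. The stretch between Mrps11 and Mrpl46, a pair of members that face away from each other, is chr7:78783090-78783130, plus strand. Mrpl33 is at chr5:31613751-31613950 on the plus strand, Mrpl17 at chr7:105811088-105811287 on the minus strand, Mrps26 at chr2:130563557-130563756 on the plus strand and Mrps36 at chr13:100744660-100744859 on the minus strand.
Mrpl20: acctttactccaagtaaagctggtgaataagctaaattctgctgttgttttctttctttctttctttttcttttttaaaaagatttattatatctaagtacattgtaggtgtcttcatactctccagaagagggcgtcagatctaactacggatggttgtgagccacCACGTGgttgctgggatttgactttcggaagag
Mrps12 to Sars2: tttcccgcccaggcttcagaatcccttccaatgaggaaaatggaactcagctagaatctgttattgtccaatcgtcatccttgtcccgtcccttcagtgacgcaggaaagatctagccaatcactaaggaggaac
Mrps11 to Mrpl46: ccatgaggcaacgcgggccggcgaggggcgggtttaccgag
Mrpl33: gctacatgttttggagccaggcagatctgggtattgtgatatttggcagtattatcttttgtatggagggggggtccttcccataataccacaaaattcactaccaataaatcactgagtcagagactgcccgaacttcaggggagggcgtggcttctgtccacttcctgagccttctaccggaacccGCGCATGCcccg
Mrpl17: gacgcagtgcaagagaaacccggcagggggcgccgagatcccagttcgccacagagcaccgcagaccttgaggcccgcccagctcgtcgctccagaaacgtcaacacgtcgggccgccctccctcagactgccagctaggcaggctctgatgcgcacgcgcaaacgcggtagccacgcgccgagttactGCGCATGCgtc
Mrps26: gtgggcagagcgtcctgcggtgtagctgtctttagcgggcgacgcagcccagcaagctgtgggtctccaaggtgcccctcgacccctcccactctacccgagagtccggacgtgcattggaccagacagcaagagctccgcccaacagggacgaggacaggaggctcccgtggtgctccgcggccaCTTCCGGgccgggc
Mrps36: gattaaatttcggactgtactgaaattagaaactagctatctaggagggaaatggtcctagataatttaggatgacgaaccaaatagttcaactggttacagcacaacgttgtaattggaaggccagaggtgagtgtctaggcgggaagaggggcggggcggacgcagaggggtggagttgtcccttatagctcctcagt

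Peaks lay at or near an end of nearly all mitochondrial ribosomal protein genes in nearly all libraries. Peaks of all lists that overlapped were merged into 26034 regions, and a gene's region was the widest one within 1000 bp of either end of its annotated span. All 78 members had such a region, and for 75 it was present in all 8 lists, against 46.2% of protein-coding genes. These were 48 of the 49 large subunit and 27 of the 29 small subunit genes. Single libraries had a peak in the region of 76 to 78 members. The 75 genes used 74 regions, because Mrps11 and Mrpl46 share one. For 7 of the 78 members the region was not the one at the gene's own listed start, and 9 more had no listed start. A member's region is therefore not always that of its promoter.

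The 3 members missing from a list were Mrps2, Mrps23 and Mrpl16. For Mrps2, a core protein of the small subunit, the region covered 1202 and 0 bp in the 4_1 replicates, 1218 and 0 bp in 4_C2, 1391 and 1421 bp in 6_1, and 1223 and 1393 bp in 6_C4. For Mrps23, another small subunit protein, the values in the same order were 1126, 1953, 1382, 1174, 1053, 1361, 0 and 1538 bp. Both gaps concern a region away from the gene's own listed start, at the neighbours 1700007K13Rik and Cuedc1. At its own start Mrps2 was covered in all 8 libraries by 1531 to 2132 bp, and Mrps23 by 2305 to 2819 bp. Mrpl16, whose bacterial counterpart helps to form the tRNA sites of the large subunit, covered 1516, 1505, 1580, 0, 1876, 1748, 1512 and 1648 bp. Its single gap was at its own start, in replicate 2 of clone 4_C2, which has the shortest of the 8 peak lists.

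RefSeq listed a start site for 69 of the 78 members. In 66 of these 69 (95.7%) the start lay under a peak in all 8 lists, against 43.5% of 17492 listed starts. The exceptions were Mrpl16 as above, Mrpl45 and Mrpl20. Mrpl45, a large subunit protein at the exit tunnel, had peaks on both sides of its start in replicate 2 of 4_C2, from 927 to 36 bp upstream and from 36 to 1057 bp downstream, and 1 peak over the start in the other 7 libraries.

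Mrpl20, a large subunit protein, was the one member whose start was covered in every library of one isolate pair and none of the other. In pair 4 its peaks began downstream of the start, at 226 and 289 bp in the 4_1 replicates and at 207 and 344 bp in 4_C2. In pair 6 they began upstream of it, at 358 and 94 bp in 6_1 and at 432 and 25 bp in 6_C4. The peaks ended 1797, 2067, 2036 and 1986 bp downstream in pair 4 and 4262, 2903, 3171 and 2840 bp downstream in pair 6. Both edges therefore lay further out in all 4 pair 6 libraries, with no overlap between the pairs. The same pattern, covered in 4 of 4 libraries of pair 6 and 0 of 4 of pair 4, was found at 0.469% of all listed starts. The window from 250 bases before to 50 after the Mrpl20 start held 43.3% G and C, next to lowest of the 69 members, whose median was 58.3%. Its ratio of observed to expected CpG was 0.573, against a member median of 0.818, and its E-box begins 33 bases before the start.

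**Figure D1:**
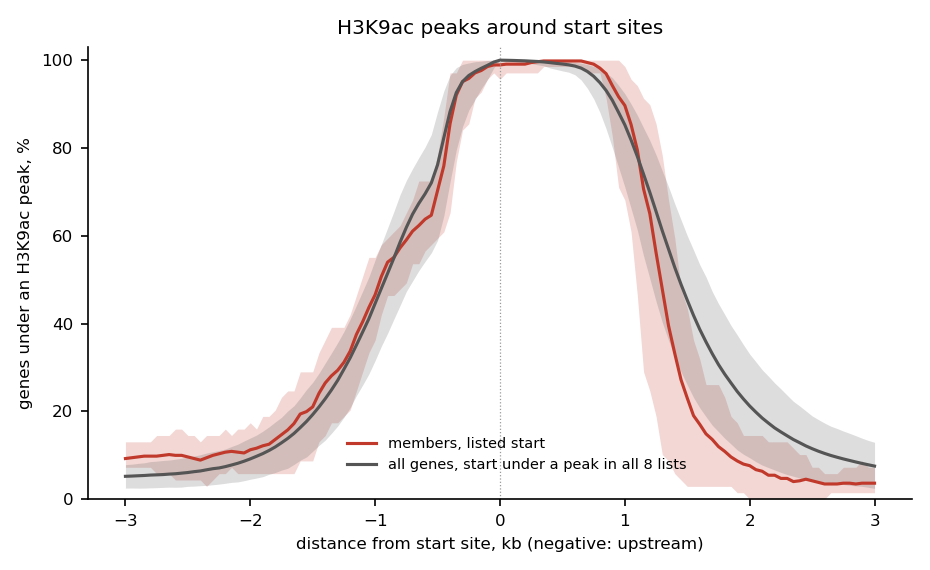
Share of genes under an H3K9ac peak (y axis, %) against distance from the listed start (x axis, kb, upstream negative). Lines are the mean of 8 libraries and bands their lowest and highest, in red for the 69 members and in grey for the genes with a start under a peak in all 8 lists; at 1.5 kb downstream the members lie between 2.90% and 43.5%, below the 26.0% to 60.0% of all such genes in each library.

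At 1500 bp downstream of their starts the members were less often covered than other covered genes in every library, as a description without a test. At 1000 bp downstream this did not hold. There 68.1% to 98.6% of members were under a peak in a library, against 71.1% to 92.3% of all genes with a start covered in all 8 lists. The member share was the higher one in all pair 6 and 4_1 libraries and the lower one in both 4_C2 libraries. At 1500 bp downstream the member share was 2.90% to 43.5%, against 26.0% to 60.0% of all such genes. Upstream the shares were closer: at 1500 bp, 8.70% to 29.0% of members and 10.9% to 26.6% of all such genes. Reach, the distance from the start to the edge of its peak, could be measured in every library for 66 members. Its median over them was 977 bp upstream and 1289 bp downstream, against 905 and 1441 bp over 7613 genes. Downstream reach exceeded upstream reach in 71.2% of members and 81.6% of all these genes. Reach upstream ran from 276 to 4023 bp among members, and reach downstream from 793 to 2135 bp.

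Some members shared their region with another gene, though the same share over all genes was not counted. In 42 of 78 the region also came within 1000 bp of an end of another protein-coding gene. In 13 it came within 1000 bp of both ends of the member itself, without always covering them. A start on the other strand, facing away and within 1000 bp upstream, was listed for 24 of 69 members (34.8%). This held for 8.04% of all listed starts and 15.7% of those under a peak in all 8 lists. The median distance between the members and these partners was 136 bp. Mrps11 and Mrpl46 were 42 bp apart, Mrpl21 and the helicase gene Ighmbp2 32 bp, and Mrps12 and Sars2 147 bp between their listed starts, 135 bases of which lie between the 2 annotated spans. Mrpl43 and Twnk, which encodes the mitochondrial DNA helicase, were 116 bp apart. Where a region is shared, a peak cannot be assigned to one gene of the pair.

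Motifs were counted on both strands of the window of 250 bases before to 50 after each listed start, and none of the letter strings searched is contained in another. The ETS core was in 24 of 69 members (34.8%), among them Mrps26, Mrps12, Mrpl18, Mrpl58 and Mrpl3, against 11.9% of all starts and 22.0% of starts covered in all 8 lists. The YY1 core AAGATGG was in 13 members (18.8%), including Mrps11, Mrps12 and Mrps7, against 6.35% and 8.16%. The NRF1 core was in 8 members (11.6%) against 3.61% and 6.59%, and it begins 12 bases before the start in Mrpl33 and 11 bases before it in Mrpl17. At least one of these 3 motifs was in 36 members (52.2%), against 20.03% and 33.0%. The GC box GGGCGG was in 34 members (49.3%), against 46.3% of all starts and 71.9% of covered starts. The E-box was in 5 members (7.25%, against 7.91% and 10.9%), namely Mrpl2, Mrpl20, Mrpl36, Mrpl37 and Mrps18c. The string TATAAA was in 4 members (5.80%, against 13.3% and 5.36%). Median G and C content was 58.3% in members, 56.3% over all starts and 63% over covered starts, and the median CpG ratio was 0.818, 0.577 and 0.827. A match is a string of letters and shows no binding.

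The covered length of a member's region, here called width, varied mainly from member to member. Mean width over the 8 libraries ran from 1410 to 5662 bp among the 75 members present in all lists, with a median of 2372 bp. Over the 10120 protein-coding genes whose region, chosen in the same way, was in all lists the median was 2489 bp, and over all 10171 regions in all lists it was 2302 bp. Mrps18b, one of several vertebrate counterparts of a single bacterial small subunit protein, was widest and covered 5199, 5145, 5224, 4933, 5859, 6804, 6469 and 5663 bp in the library order used above. Mrps7, a small subunit head protein that binds the ribosomal RNA, covered 4495, 4122, 4314, 4355, 5328, 5559, 4951 and 6690 bp. Both regions also hold the start of a neighbour facing away, Ppp1r10 and Gga3. Mrpl33, a small protein of the large subunit, was narrowest of the 75 and covered 1468, 1221, 1323, 1211, 1756, 1574, 1366 and 1357 bp. The widest and the narrowest did not overlap in any library, which follows largely from their being picked by mean width.

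Members named for their place in the ribosome showed the same spread. Mrpl12, which forms the stalk that recruits translation factors, covered 3788, 3186, 3554, 3067, 5551, 3247, 3925 and 4499 bp. Mrpl11, at the base of that stalk, covered 1951, 1874, 1757, 1590, 2540, 2215, 2064 and 1963 bp. For Mrpl3, a core protein of the large subunit, the values were 1642, 1688, 1803, 1248, 1331, 1582, 1589 and 1712 bp. All of these genotype groups overlapped. Mrpl44, a large subunit protein with a ribonuclease III-like fold, covered 1616, 1546, 1201, 1486, 1823, 1951, 1773 and 1760 bp. Mrps5, near the decoding site of the small subunit, covered 4600, 2807, 3154, 2220, 3804, 5029, 4722 and 4076 bp. Mrps22 and Mrps34, small subunit proteins in which human mutations cause respiratory chain deficiency, covered 1512 to 1920 bp and 3647 to 4803 bp, again with overlap of the genotypes. The Mrps34 region also comes within 1000 bp of an end of Eme2, Mapk8ip3 and Nme3.

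**Figure D2:**
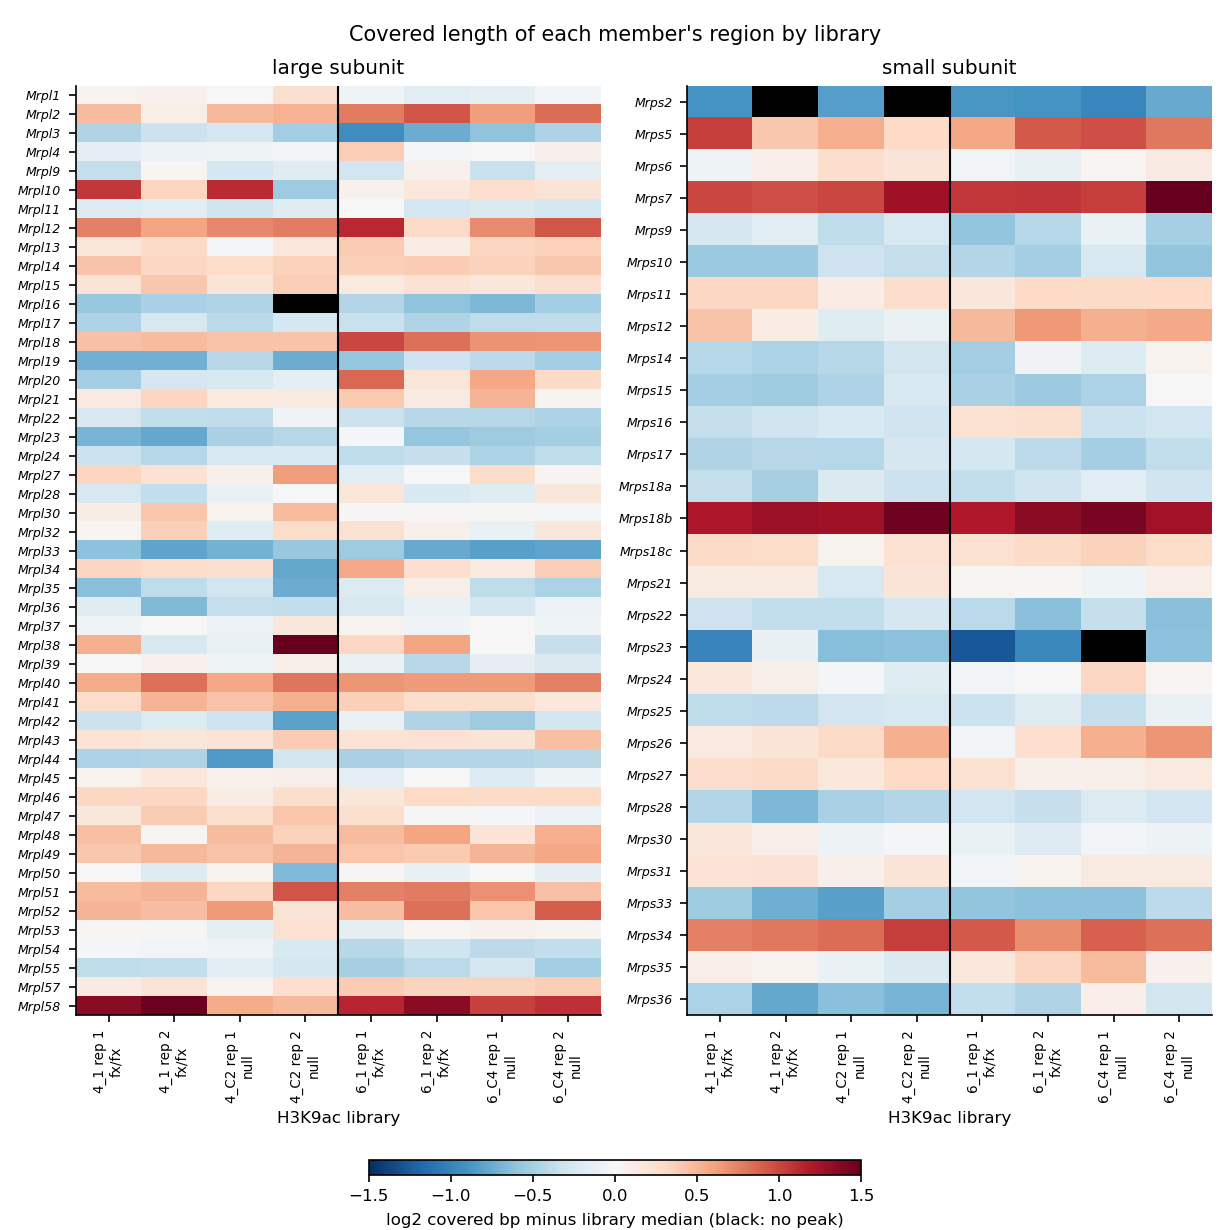
Width of each member's region in each library, as log2 covered bp minus the library's median over regions in all 8 lists (colour scale, red wider, blue narrower, black no peak); rows are members by subunit and columns libraries, with a line between the isolate pairs. Rows differ more than columns, and black cells mark the 4 values at 0 of Mrpl16, Mrps2 and Mrps23.

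Loss of Gcn5 was not accompanied by a change in the width of any member that passed the test. Width was compared on the log2 scale after each library was centred on its median over regions in all lists, with limma and isolate pair as a term. No member passed an adjusted p of 0.05 in either direction, nor did any of the 10171 regions (0% lower and 0% higher). The median difference, null minus fx/fx, was 0.005 over the 75 members and 0.016 over all regions. It was below 0 for 37 members (49.3%), against 45.1% of all regions, and within 0.2 of 0 for 68 members (90.7%), against 84.8%. The large subunit median was -0.013, with 26 of 48 genes below 0, and the small subunit median was 0.034, with 11 of 27 below 0. Over the members the median of 2 standard errors was 0.20, so differences of that size could not be told from 0 for a typical member. That limit takes no account of the adjustment over all regions. The lowest and highest members, at -0.54 and 0.36, did not pass the adjusted threshold either, so larger changes are not excluded. Without centring the median over all regions was -0.12 and over members -0.13, with 66 of 75 members below 0. At an unadjusted p under 0.05 limma then gave 1296 of the 10171 regions narrower and 19 wider in null libraries, with 0 called after adjustment. Centring takes out a shift shared by all regions, so a general narrowing in null libraries would not show in the centred values. The direction of a member's difference is thus stated here relative to its libraries. List lengths also differed by genotype, as given above, and their part in the widths was not tested. The centred member median was 0.014 within pair 4 and 0.019 within pair 6, and 38 of 75 members had the same sign in both.

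At an unadjusted p under 0.05, limma gave 1 member narrower and 1 wider in null libraries, against 3.22% and 3.72% of all regions. Centred widths of the genotypes did not overlap for 1 member narrower and 2 wider, against 0.954% and 1.51%. The narrower member was Mrpl58, a peptidyl-tRNA hydrolase built into the large subunit that can release stalled chains. Its region at chr11:115408014-115414823, at the 3′ end of the gene and shared with the ATP synthase subunit gene Atp5h, covered 5729 and 5856 bp in 4_1, 3160 and 2520 bp in 4_C2, 5596 and 6809 bp in 6_1, and 4882 and 5043 bp in 6_C4. All 4 null values lay below all 4 fx/fx values, and the pair 4 null clone was lowest. Mean widths were 5998 ± 551 bp (fx/fx) and 3901 ± 1255 bp (null; SD, n = 4 per genotype), and the difference in limma was -0.54 ± 0.14 (SE, adjusted p = 0.714). In pair 4 the missing length lay mostly in a stretch between about 4 and 7 kb from the Mrpl58 start. It was under a peak in both 4_1 libraries (from 4745 to 7327 bp and from 4894 to 7048 bp) and had no peak in either 4_C2 library, in which the first peak of the region began at 7654 and 8369 bp. At the start of Mrpl58 itself the difference was 0.06 ± 0.16 in limma (SE, adjusted p = 0.945), the opposite sign.

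Mrps26, a small subunit protein specific to mitochondria, was the wider member. It covered 2491 and 2411 bp in 4_1, 2637 and 2598 bp in 4_C2, 2466 and 3173 bp in 6_1, and 3478 and 3724 bp in 6_C4. The 6_C4 values were the highest 2 and the second 6_1 replicate the next. The fx/fx mean was 2635 ± 360 bp and the null mean 3109 ± 577 bp (SD, n = 4 per genotype). Raw widths of the genotypes overlapped and centred ones did not, and the limma difference was 0.36 ± 0.11 (SE, adjusted p = 0.714). The lengthening in 6_C4 lay downstream, where its peak reached 2224 and 2313 bp from the start against 1195 and 1717 bp in 6_1.

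The next members by p were not past the unadjusted threshold. Mrps6, a small subunit protein, covered 2150, 2273, 2586, 2060, 2472, 2465, 2455 and 2571 bp, with a centred difference of 0.18 ± 0.08 (SE). Mrps15, also of the small subunit, covered 1578, 1466, 1566, 1524, 1822, 1812, 1735 and 2365 bp, with a difference of 0.23 ± 0.11 (SE), and after centring its genotypes did not overlap. Mrps16, a small subunit protein, covered 1756 and 1718 bp in 4_1, 1848 and 1461 bp in 4_C2, 2993 and 3144 bp in 6_1, and 1920 and 1936 bp in 6_C4, so that the 6_1 libraries stood above the other 6. Its difference was -0.24 ± 0.12 (SE). For Mrps12 it was -0.21 ± 0.11 (SE).

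**Figure D3:**
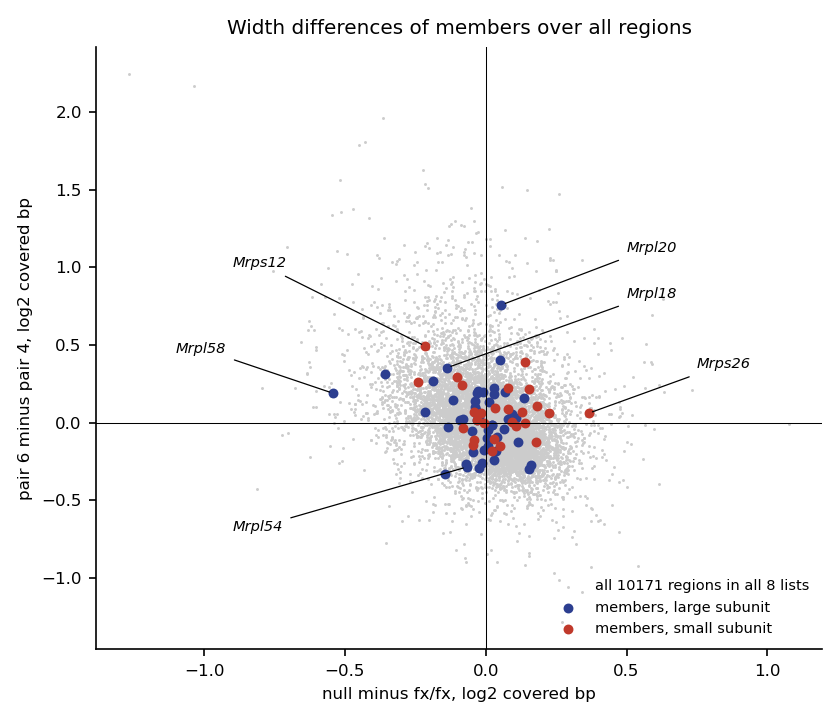
Difference in log2 width between null and fx/fx (x axis) against the difference between pair 6 and pair 4 (y axis), both from limma on centred widths; grey points are all 10171 regions, blue and red points the members by subunit. Members lie within the cloud of all regions, from -0.54 (Mrpl58) to 0.36 (Mrps26) on the x axis and up to 0.76 (Mrpl20) on the y axis.

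More members passed the test between isolate pairs than between genotypes, though which factor had the larger effect was not tested. In the same limma fit 3 members were wider in pair 6 at an adjusted p under 0.05 (4.32% of all regions were) and 0 were narrower (2.52%). At an unadjusted p under 0.05 there were 8 wider and 6 narrower members, against 12.6% and 13% of regions. Centred widths of the pairs did not overlap for 8 wider and 5 narrower members, against 7.13% and 9.69%. The member share called is thus near that of all regions. The median difference was 0.028 over members and -0.019 over all regions. Without centring these medians were 0.29 and 0.25, and 31 of 75 members were called wider, when 26.8% of all regions were. The pair 6 lists also held more peaks, as given above, and their part in the widths was not tested.

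Mrpl20 had the largest difference. It covered 1572 and 1779 bp in 4_1, 1830 and 1643 bp in 4_C2, 4621 and 2998 bp in 6_1, and 3604 and 2866 bp in 6_C4. The pair means were 1706 ± 119 and 3522 ± 800 bp (SD, n = 4 each), and in limma pair 6 exceeded pair 4 by 0.76 ± 0.15 (SE, adjusted p = 0.0222). Mrps12, the decoding-site protein in which bacterial mutations give streptomycin resistance, covered 3014 and 2288 bp in 4_1, 1902 and 1680 bp in 4_C2, 3552 and 4174 bp in 6_1, and 3474 and 3490 bp in 6_C4. Every pair 6 value was above every pair 4 value, with means of 2221 ± 585 and 3673 ± 336 bp (SD, n = 4 each) and a limma difference of 0.49 ± 0.11 (SE, adjusted p = 0.0326). The region at chr7:28739253-28743426 spans the short Mrps12 to Sars2 stretch printed above. Downstream of the Mrps12 start the peaks reached 2029, 1083, 987 and 880 bp in pair 4 and 2311, 2568, 2221 and 2211 bp in pair 6. Mrpl18, a large subunit protein of the family that binds 5S ribosomal RNA in bacteria, covered 3036, 2940, 2894 and 2419 bp in pair 4 and 5101, 4720, 3850 and 3739 bp in pair 6. Its limma difference was 0.35 ± 0.09 (SE, adjusted p = 0.0395), and its region at chr17:12914482-12919582 is shared with the chaperonin gene Tcp1. The added length lay on the Tcp1 side, where the pair 6 peaks reached 2351 to 3491 bp upstream of the Mrpl18 start and the pair 4 peaks at most 1780 bp.

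Leaving out 1 library at a time left 0 to 2 of these 3 members past the threshold, with 2.57% to 3.65% of all regions called wider. Adjusted p in limma ranged from 0.0231 to 0.0671 for Mrpl20, from 0.0185 to 0.0966 for Mrps12 and from 0.0604 to 0.106 for Mrpl18. No member was called when replicate 2 of 4_1 or replicate 1 of 6_C4 was left out. The sign held each time for all 3. Mrpl54, a large subunit protein, had the lowest p among narrower members and covered 2205, 2058, 2080, 1536, 1910, 2151, 1829 and 1826 bp. Its raw widths overlapped and its centred widths did not, with a limma difference of -0.28 ± 0.08 (SE, adjusted p = 0.0652).

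**Figure D4:**
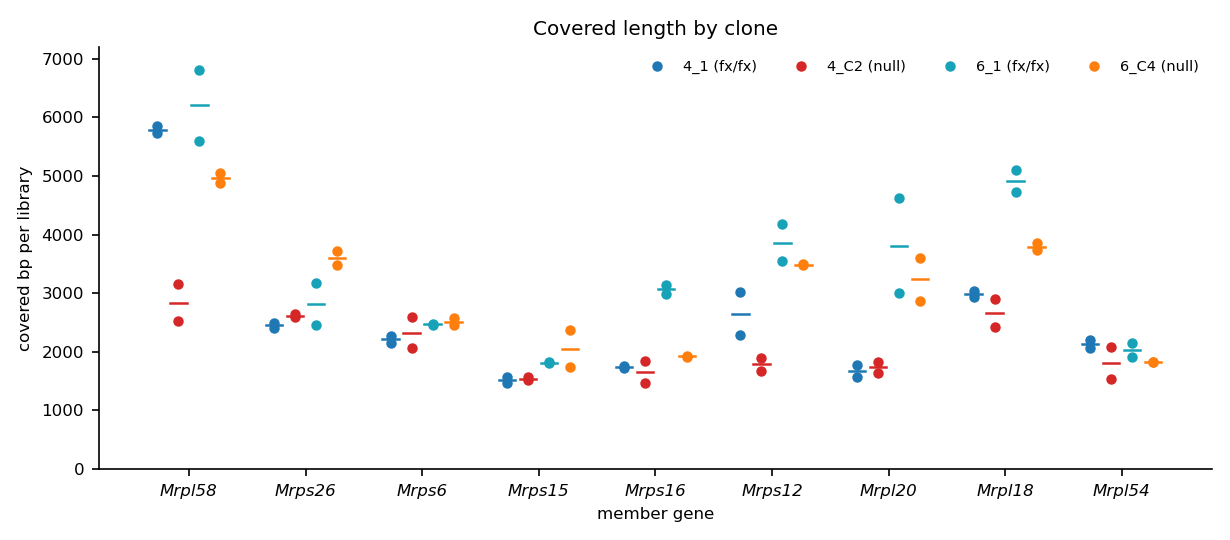
Covered bp per library (y axis, from 0) of the members with the lowest p in either comparison; points are the 2 replicates of a clone, bars their mean, and colours the clones. Mrpl20, Mrps12 and Mrpl18 are higher in both pair 6 clones, Mrpl58 is lowest in clone 4_C2, and Mrps16 is highest in clone 6_1.

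**Figure D5:**
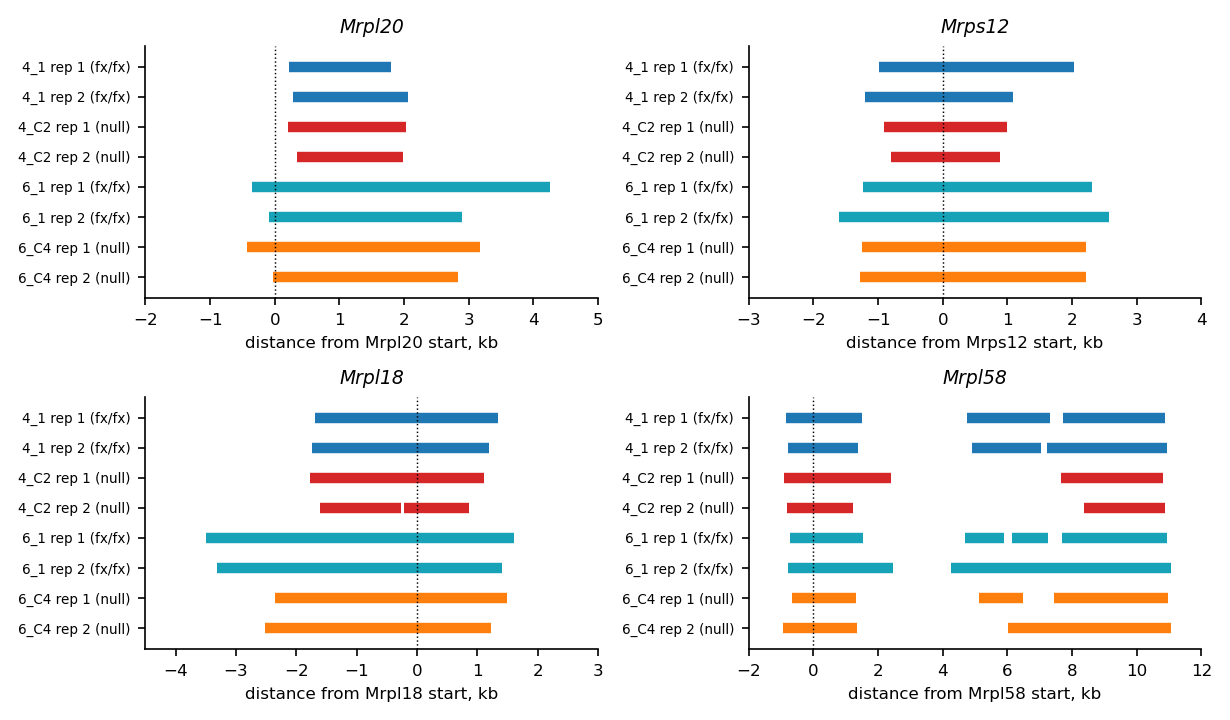
Peaks of each library (rows, coloured by clone) against distance from the listed start of the gene named (x axis, kb, negative upstream). At Mrpl20 the pair 4 peaks begin downstream of the start and the pair 6 peaks upstream of it; at Mrpl58 the stretch between about 4 and 7 kb has no peak in clone 4_C2.

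The genotype difference itself was not shown to vary between the pairs for any member. The limma term for genotype by pair called 0 of 75 members and 0% of regions in each direction. At an unadjusted p under 0.05 it gave 1 member below 0 and 1 above, against 3.89% and 2.76% of regions. Mrpl58 differed by -0.89 within pair 4 and -0.19 within pair 6 (interaction 0.70 ± 0.18 (SE), adjusted p = 0.536 in limma). Mrps16 differed by 0.07 within pair 4 and -0.54 within pair 6 (interaction -0.61 ± 0.15 (SE), adjusted p = 0.547 in limma).

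Reach from the start gave the same calls for genotype. Of 66 members, 0 were called for null against fx/fx by limma in either direction upstream or downstream, and neither was any of the 7613 genes (0%). At an unadjusted p under 0.05 there were 3 members upstream (4.11% of genes) and 1 downstream (6.24%), the lowest p being that of Mrps6 upstream, at 0.37 (log2 of bp + 100, adjusted p = 0.885 in limma). Between pairs, upstream reach was called longer in pair 6 for 1 member (0.46% of genes) and shorter for 0 (0%), and downstream reach for 0 members in either direction (1.17% longer, 0.223% shorter). The member was Mrps36, a protein named for the small subunit and since placed in the 2-oxoglutarate dehydrogenase complex. Its peak reached 465, 355, 441 and 280 bp upstream in pair 4 and 975, 916, 853 and 738 bp in pair 6, with no overlap and a limma difference of 0.74 ± 0.10 (SE, adjusted p = 0.0308). Without any 1 library the adjusted p was 0.0721 to 0.155. The next protein-coding gene upstream, Cenph, lies 15014 bp away.

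Most genes of the other mitochondrial gene expression lists also had a region in every library, with the lowest share among transcription factors and regulators. A region in all 8 lists was found for 5 of 5 mitoribosome subunits with other symbols, 26 of 27 assembly and rRNA factors, 16 of 16 translation factors, 19 of 20 mitochondrial aminoacyl-tRNA synthetases and 17 of 21 factors of mitochondrial transcription and its nuclear regulators. These gene lists are broader than their names. The synthetase list also holds Gatb, Gatc and Qrsl1, and the transcription list Polg, Polg2, Twnk and Ssbp1, which have other roles. No gene of these gene lists was called for null against fx/fx in limma, nor was any region (0%). At an unadjusted p under 0.05 in limma, the transcription list had 1 gene narrower and 1 wider in null libraries. The rest of these gene lists had 0, and of all regions 3.22% were narrower and 3.72% wider. The narrower gene was Gabpa, at -0.46 ± 0.13 (SE), and the wider one Yy1, at 0.20 ± 0.09 (SE). The median differences of the gene lists, in the order of the counts, were -0.04, 0.01, -0.000485, 0.01 and -0.05, against 0.016 over all regions. Between pairs, 5 of their genes were wider in pair 6 by limma and 0 narrower, against 4.32% and 2.52% of all regions. These genes were named after their values were seen, save Gadd45gip1 and Sars2. Gadd45gip1, a large subunit protein near the exit tunnel, differed by 0.85 ± 0.20 (SE, adjusted p = 0.0345 in limma), covering 1579, 3194, 1813 and 1387 bp in pair 4 and 4850, 4345, 3703 and 3543 bp in pair 6. Tfb1m, which methylates the small subunit rRNA, differed by 0.62 ± 0.15 (SE, adjusted p = 0.0415 in limma). Tefm, a mitochondrial transcription elongation factor, differed by 0.87 ± 0.13 (SE, adjusted p = 0.00767 in limma), and Pprc1, a coactivator of nuclear respiratory factors, by 0.81 ± 0.21 (SE, adjusted p = 0.0479 in limma). Sars2 is the partner of Mrps12 and has the same region and value.

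Nuclear genes for respiratory chain and ATP synthase subunits, and genes of the cytosolic ribosome, gave these values in the same fits. Of all regions, 0% were called between genotypes, and 4.32% were called wider and 2.52% narrower in pair 6. Of 69 nuclear genes of complexes I, IV and V, 59 had a region in all lists, with a median genotype difference of 0.01 and 0 called between genotypes or pairs. At an unadjusted p under 0.05 in limma 2 of these 59 were narrower and 2 wider in null libraries. Of 81 cytosolic ribosomal protein genes, 78 had a region in all lists, with a median width of 3627 bp against 2372 bp for the mitochondrial members. Their median genotype difference was -0.06, with 51 of 78 below 0 (45.1% of all regions were) and 0 called. At an unadjusted p under 0.05 in limma 7 were narrower and 0 wider, against 3.22% and 3.72% of all regions. Their median pair difference was 0.19, with 15 of 78 below 0 (53.8% of all regions were) and 4 called wider. The difference between the families was not tested.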

How the data were processed

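H3K9ac ChIP-seq was deposited for 8 libraries, 2 from each of 4 clones, and 16 further samples (H3 and input) were left out. The authors deposited a list per library with the chromosome, start and end of each peak and no score. Per the submitters' processing notes, the tools were Bowtie 1.1.2 and MACS 1.4.2, with build mm10. Thresholds, controls and filters are not stated. With more reads, a caller can report more and longer peaks.

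Coordinates are on mm10, counted from 1. Gene spans, listed start sites and promoter sequences came from RefSeq tables of GRCm38.p6. Peaks overlapping by at least 1 bp were merged. Log2 covered bp, centred per library, was tested with limma 3.58.1 (R 4.3.3) over regions in all 8 lists, with genotype and isolate pair as terms and Benjamini-Hochberg adjustment over all regions at 0.05. A further fit added their interaction. Reach used log2 of bp + 100. The genotype width test was tried on simulated widths with each region's fitted mean per pair and spread. It called 62 of 100 regions narrowed 1.5-fold in null libraries, 94 of 100 narrowed 2-fold and 10 of 9971 left unchanged. Clone differences beyond isolate pair were not simulated, and the other tests were not tried. Tables and figures used Python 3.11.15, pandas 2.3.3, numpy 2.4.6 and matplotlib 3.10.9.

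The members, the other lists (subunits with other symbols, assembly and rRNA factors, translation factors, aminoacyl-tRNA synthetases, transcription and its regulators, cytosolic ribosomal proteins, complexes I, IV and V, and culture markers) and the tests were chosen with earlier results of these data known. Values per library are given for the 6 members with the lowest p by genotype and the 4 lowest by pair. They are also given for those missing from a list, the 3 widest and 3 narrowest, and 10 role examples. For each other list the rule allowed at most 3 named genes, by lowest genotype p. Not every gene so allowed is named, and Tfb1m, Tefm and Pprc1 were named for their pair calls instead. Mrps36, Mrpl45 and the printed Mrpl17, Mrps11 and Mrpl46 were chosen after their values were seen. Some genes that the rule takes are given only in part. Alternatives were no centring, a replicate block, equal-length lists, a 25% coverage minimum, regions in at least 4 lists with 100 bp added, merging within 500 bp, limma's trend and robust options, a single term, other windows or added bp, each library left out and, added after seeing the data, the region at the listed start.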

Additional observations from a re-analysis of the deposited data

Results flagged for a closer look

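In the 22 members given by library, 44 groups of 4 libraries were examined for a value that stands apart, and 4 were found. Chance gives about 1 in 20 such groups when members are picked without regard to their values. That rate is no yardstick here, because Mrps2 and Mrpl16 were picked for missing from a list and others for their p. Mrpl16 was at 0 bp in replicate 2 of null clone 4_C2. Mrps2 was at 0 bp in replicate 2 of fx/fx clone 4_1 and at 0 bp in replicate 2 of null clone 4_C2. Mrps26 covered 3173 bp in replicate 2 of fx/fx clone 6_1, above the other fx/fx libraries.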

How the results depend on the processing

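Without centring, the member median for null against fx/fx was -0.13, that for pair 6 against pair 4 was 0.29 and 31 members were called wider in pair 6 (26.8% of all regions). Reach medians were then -0.0795 upstream and -0.13 downstream by genotype, and 0.23 and 0.24 by pair, with 2 and 3 members called (2.31% and 11.9% of genes). With regions in at least 4 lists, 1 member was called wider in pair 6 (7.06% of regions), and Mrpl20 and Mrps12 had adjusted p values in limma of 0.0626 and 0.0651. Leaving out 1 library gave 0 to 2 members called wider in pair 6 (2.57% to 3.65% of regions), an interaction median of -0.0584 to 0.0572, a genotype median for upstream reach of -0.00122 to 0.115, and between pairs 0 members called upstream (0.105% to 0.389% of genes) and 0 to 1 downstream (0.609% to 1.26%). The region at the listed start reversed Mrpl58, to 0.0633 by genotype and -0.582 in the interaction, since this is a different region. By replicate number, correlations of deviations between clones were low, at -0.026 to 0.109 (the highest for 4_1 with 4_C2). Replicate 2 had the shorter peak list in every clone. With the replicate block the pair difference of Mrpl18, 0.35, had an adjusted p of 0.0536 in limma, with no other call changed. In all settings run, 0 members were called by genotype. Members in all lists numbered 70 to 76 over the other windows, coverage rules and libraries left out. Unknown depth and peaks without height limit every comparison to called length.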
